A study of Homo sapiens with 4 samples.

Results

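The mitochondrial ribosome genes were the 77 protein-coding RefSeq genes with a symbol of MRPL or MRPS followed by digits, out of 20033 protein-coding genes in all. By these names, 49 encode proteins of the large ribosomal subunit and 28 of the small subunit. ChIP-seq located the forkhead transcription factor FOXK1 on the chromatin of HK-2 cells, an immortalised line from the proximal tubule of a human kidney. One condition was 10 ng/ml TGF-β1, a cytokine of fibrosis, for 24 h, and the other was culture without it. A single FOXK1 library and a single input library stood for each condition, from chromatin cut with micrococcal nuclease and sonicated. The series asked how FOXK1 acts in renal fibrosis.

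Mitochondria keep a ribosome of their own, which translates the few messages of mitochondrial DNA, all for subunits of the respiratory chain and ATP synthase. Its RNA comes from mitochondrial DNA, but every one of its proteins is encoded in the nucleus, translated in the cytosol and imported. Proximal tubule cells are rich in mitochondria and rely on them to power solute transport. Some of the proteins have bacterial relatives, and others are found only in mitochondria. RefSeq gives 75 of the 77 genes a ribosomal protein name, with 44 names of the kind shared with bacteria (uL, bL, uS, bS) and 31 of the mitochondria-specific kind (mL, mS). MRPS24 and MRPS28 had no such name. MRPS30 (mL65) and MRPS18A (mL66) carry large-subunit names in spite of their symbols. Genes named otherwise, such as DAP3, were left out by the rule and are described with other genes of mitochondrial translation.

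The data are 2 lists of FOXK1 peaks, one per condition, each called by the authors against its own input. The TGF-β1 list held 439136 peaks on assembled chromosomes and the control list 381700. Each peak had a height, the authors' value in whole numbers of at least 3, read here as the pileup of reads at its summit, and the median was 5 in both lists. A flanking peak of a gene was one that overlapped a window of 1 kb to each side of either end of its annotated span. A strong peak was at least as high as the 10000th highest of its list, with ties kept, which meant a height of 15 in the TGF-β1 list and of 17 in the control list. Read depth is unknown and there were no replicate libraries, so there was no test. The height of a gene's highest flanking peak describes its place within each list. Heights set side by side for both lists are not a measure of change.

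RefSeq promoter windows (GRCh38.p14, 250 bases before to 50 after a listed start) were found for 69 members, with 85 starts. The members without one were MRPL2, MRPL10, MRPL13, MRPL15, MRPL21, MRPL23, MRPL35 and MRPS28. The windows printed here are those of members with high peaks, of each member with the forkhead core letters, and of 1 of a pair of members with a common peak. All are 5′ to 3′ on the strand of the gene. Capitals mark matches on either strand to GTAAACA or its core TAAACA (forkhead), the NRF1 letters searched, CCGGAAG (ETS factors such as GABPA) and AAGATGGC (YY1). MRPL18 and MRPL51, shown first, had the highest flanking peaks among the members in the TGF-β1 list. MRPL36 shows the NRF1 letters beside the YY1 letters, and MRPS21 had the highest peak of the small subunit. MRPL20, MRPS18B and MRPS22 hold the forkhead core. The MRPL46 window lies under the peak that MRPL46 shares with MRPS11.
The MRPL18 window is chr6:159789562-159789861, on the plus strand, and holds none of these letters. Another listed window of MRPL18, chr6:159790217-159790516, holds CCGGAAG on the opposite strand, at position -26.
MRPL18: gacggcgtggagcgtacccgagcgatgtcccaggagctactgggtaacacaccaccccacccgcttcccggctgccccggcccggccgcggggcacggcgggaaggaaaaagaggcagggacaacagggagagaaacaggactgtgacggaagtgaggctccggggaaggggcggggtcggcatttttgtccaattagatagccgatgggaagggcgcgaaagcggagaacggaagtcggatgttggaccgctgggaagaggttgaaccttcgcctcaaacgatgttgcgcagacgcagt
The MRPL51 window is chr12:6493213-6493512, on the minus strand.
MRPL51: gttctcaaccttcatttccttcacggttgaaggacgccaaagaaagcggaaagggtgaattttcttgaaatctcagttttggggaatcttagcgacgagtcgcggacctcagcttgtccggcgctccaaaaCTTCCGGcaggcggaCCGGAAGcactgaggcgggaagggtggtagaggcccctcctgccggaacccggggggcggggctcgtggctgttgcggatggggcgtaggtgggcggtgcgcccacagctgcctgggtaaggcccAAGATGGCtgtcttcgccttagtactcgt
The MRPL36 window is chr5:1799788-1800087, on the minus strand.
MRPL36: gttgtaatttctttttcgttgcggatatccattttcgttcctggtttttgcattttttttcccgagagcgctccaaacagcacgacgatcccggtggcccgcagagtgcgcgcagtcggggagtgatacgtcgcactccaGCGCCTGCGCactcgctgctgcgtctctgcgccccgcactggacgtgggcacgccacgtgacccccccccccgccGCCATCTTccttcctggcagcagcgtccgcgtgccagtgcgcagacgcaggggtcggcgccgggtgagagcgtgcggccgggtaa
The MRPS21 window is chr1:150293611-150293910, on the plus strand.
MRPS21: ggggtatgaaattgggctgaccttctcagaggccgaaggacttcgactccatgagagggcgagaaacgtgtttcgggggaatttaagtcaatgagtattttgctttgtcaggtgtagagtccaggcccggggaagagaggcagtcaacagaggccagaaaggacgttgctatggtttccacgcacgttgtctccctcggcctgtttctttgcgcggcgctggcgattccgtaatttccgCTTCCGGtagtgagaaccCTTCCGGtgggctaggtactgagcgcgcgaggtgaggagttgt
The MRPL20 window is chr1:1407244-1407543, on the minus strand.
MRPL20: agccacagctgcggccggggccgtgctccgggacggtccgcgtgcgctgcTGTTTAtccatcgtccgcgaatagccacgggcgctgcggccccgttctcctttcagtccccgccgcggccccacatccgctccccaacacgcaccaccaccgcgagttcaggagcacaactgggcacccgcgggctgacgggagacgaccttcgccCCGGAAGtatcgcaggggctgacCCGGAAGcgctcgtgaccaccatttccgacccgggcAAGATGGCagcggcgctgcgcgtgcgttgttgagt
The MRPS18B window is chr6:30617590-30617889, on the plus strand.
MRPS18B: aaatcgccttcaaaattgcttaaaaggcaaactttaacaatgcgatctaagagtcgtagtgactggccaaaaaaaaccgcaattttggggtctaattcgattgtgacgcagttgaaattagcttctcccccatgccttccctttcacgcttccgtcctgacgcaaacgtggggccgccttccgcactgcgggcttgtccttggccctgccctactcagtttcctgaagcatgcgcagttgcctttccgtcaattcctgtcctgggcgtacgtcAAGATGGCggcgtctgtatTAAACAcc
The MRPS22 window is chr3:139343770-139344069, on the plus strand.
MRPS22: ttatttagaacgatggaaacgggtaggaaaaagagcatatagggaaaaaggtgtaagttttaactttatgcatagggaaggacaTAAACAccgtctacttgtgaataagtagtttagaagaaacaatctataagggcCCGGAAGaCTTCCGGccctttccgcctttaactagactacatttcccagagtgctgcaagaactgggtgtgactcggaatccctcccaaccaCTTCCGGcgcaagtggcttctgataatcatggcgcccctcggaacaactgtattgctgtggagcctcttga
The MRPL46 window is chr15:88467339-88467638, on the minus strand.
MRPL46: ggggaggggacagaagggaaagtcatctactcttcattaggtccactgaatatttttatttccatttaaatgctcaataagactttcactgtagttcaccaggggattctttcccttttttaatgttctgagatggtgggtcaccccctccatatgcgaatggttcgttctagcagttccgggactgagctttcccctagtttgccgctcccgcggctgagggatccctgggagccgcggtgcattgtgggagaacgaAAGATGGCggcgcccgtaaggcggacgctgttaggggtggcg

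Nearly all mitochondrial ribosome genes had a FOXK1 peak at a gene end in both lists. A flanking peak of any height was found for 71 of 77 members (92.2%) in the TGF-β1 list, against 74.6% of all protein-coding genes, and for 74 (96.1%) in the control list, against 75.3%. Both lists had one for 70 members (90.9%), against 64.0% of all genes. Exact binomial 95% intervals, a measure of counting error alone, ran from 83.8 to 97.1% and from 89.0 to 99.2% for the members. Most of these peaks were of middling height. The median height over the members with a peak was 11 in the TGF-β1 list and 13 in the control list, against 9 and 10 over all genes with a peak.

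Strong peaks were found at 21 members (27.3%, 95% interval 17.7 to 38.6) in the TGF-β1 list, against 15.7% of all genes. In the control list there were 27 (35.1%, 24.5 to 46.8), against 17.0%. Both lists had a strong peak at 19 members (24.7%), against 11.9% of all genes, so most members strong in one list were strong in the other too. Strong in the TGF-β1 list only were MRPL15 and MRPS35, and strong in the control list only were 8 members. Of all 20033 genes, 2390 were strong in both lists, 755 in the TGF-β1 list only and 1022 in the control list only. No difference between the conditions was tested.

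**Figure D1:**
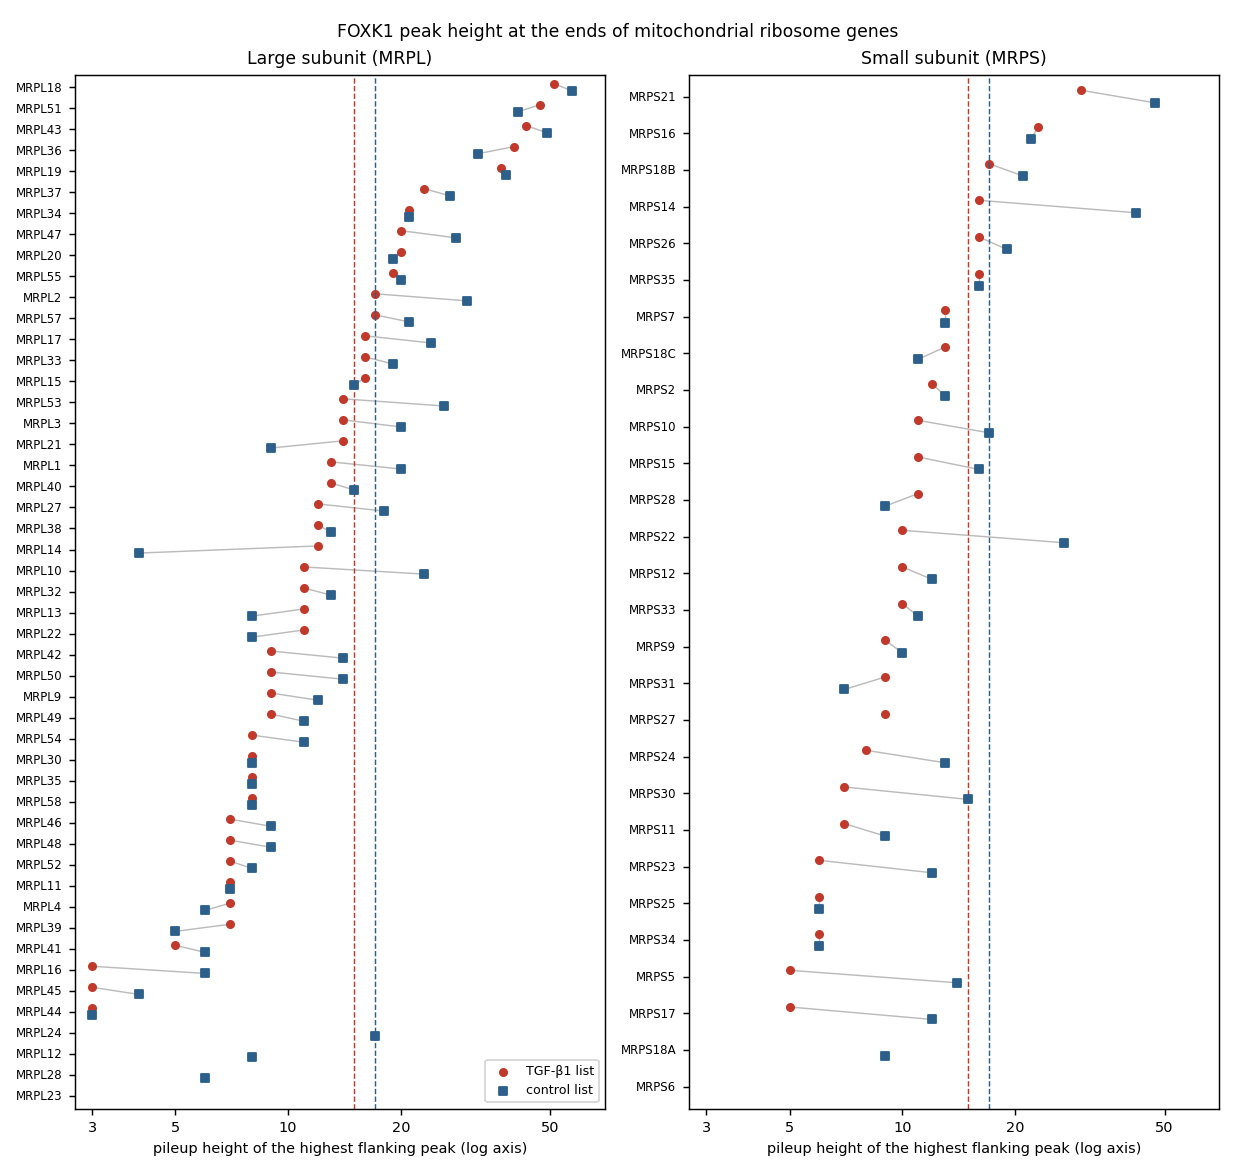
Pileup height of the highest flanking peak (horizontal, log axis) for each of the 77 genes, large subunit left and small subunit right, ordered by the TGF-β1 list. Circles are the TGF-β1 list, squares the control list, dashed lines the strong heights of 15 and 17, and a missing symbol means no flanking peak; MRPL18 leads the large subunit with 51 and 57 and MRPS21 the small subunit with 30 and 47.

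The highest peaks of the large subunit were at genes of conserved and of mitochondria-specific proteins. MRPL18 (uL18m), whose bacterial relative binds 5S rRNA in the central protuberance, had a height of 51 in the TGF-β1 list and of 57 in the control list. MRPL51 (mL51), which has no bacterial relative, had 47 and 41, and MRPL43 (mL43) had 43 and 49. MRPL36 (bL36m), one of the smallest ribosomal proteins, had 40 and 32. MRPL19 (bL19m), related to a bacterial protein at the contact of the subunits, had 37 and 38. Among all protein-coding genes MRPL18 ranked 253rd in the TGF-β1 list and 261st in the control list, so even the highest members were well below the top of each list.

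Other large-subunit members strong in both lists had heights between 16 and 23 in the TGF-β1 list. MRPL37 (mL37) had 23 in the TGF-β1 list and 27 in the control list. MRPL34 (bL34m) had 21 and 21, and MRPL55 (bL31m) had 19 and 20. MRPL20 (bL20m), related to a bacterial protein needed early in subunit assembly, had 20 and 19. MRPL57 (mL63) had 17 and 21 and MRPL33 (bL33m) 16 and 19. Of these, MRPL33 lay nearest to the strong heights of 15 and 17.

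Proteins that ring the exit of the peptide tunnel in bacteria had relatives with unlike values. MRPL47 (uL29m) had heights of 20 in the TGF-β1 list and 28 in the control list, and MRPL17 (bL17m) had 16 and 24. MRPL22 (uL22m) had 11 and 8. MRPL23 (uL23m) had no flanking peak in either list. MRPL24 (uL24m) had a strong flanking peak of 17 in the control list only. A TGF-β1 peak of height 18 overlapped it and lay inside the gene, 1073 bp from the gene's end. That is just beyond the window, as is the listed start of MRPL24, so the site itself was in both lists. MRPL45 (mL45), which tethers the ribosome to the inner membrane at this exit, had 3 and 4, among the lowest values of all members.

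Members near the catalytic centre and the stalks ranged from among the lowest heights to strong ones. MRPL2 (uL2m), whose relative lies by the peptidyl transferase centre, had 17 in the TGF-β1 list and 30 in the control list. MRPL3 (uL3m) had 14 and 20, MRPL27 (bL27m) 12 and 18, and MRPL16 (uL16m) 3 and 6. MRPL1 (uL1m), of the stalk that guides spent tRNA out, had 13 and 20. MRPL10 (uL10m), at the base of the stalk that recruits translation factors, had 11 and 23, and MRPL11 (uL11m) beside it had 7 and 7. MRPL12 (bL12m), the stalk protein itself, had 8 in the control list and no flanking peak in the TGF-β1 list. Strong heights also began 2 units higher in the control list, and with depth unknown these pairs cannot be read as change.

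The small subunit had its highest peak at MRPS21 in both lists. MRPS21 (bS21m) had heights of 30 in the TGF-β1 list and 47 in the control list. MRPS16 (bS16m), related to a bacterial assembly protein, had 23 and 22. MRPS14 (uS14m), of the head of the subunit, had 16 and 42. MRPS18B (mS40) had 17 and 21 and MRPS26 (mS26) 16 and 19, which completes the 5 small-subunit members strong in both lists. MRPS35 (mS35) had 16 and 16, at the level where a peak is strong in the TGF-β1 list and not in the control list.

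Other small-subunit members spanned low to middling heights. In the head, MRPS7 (uS7m) had 13 in the TGF-β1 list and 13 in the control list, MRPS9 (uS9m) had 9 and 10, and MRPS10 (uS10m) had 11 and 17. MRPS12 (uS12m), of the decoding centre, had 10 and 12. MRPS5 (uS5m) had 5 and 14, and MRPS17 (uS17m) had 5 and 12. MRPS22 (mS22), a gene mutated in mitochondrial disease, had 10 and 27 and was strong in the control list only, as was MRPS10. MRPS15 (uS15m), with 11 and 16, and MRPS30, with 7 and 15, were just below the strong height of the control list.

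A further set of members was below the strong heights in both lists. Large-subunit members shared with bacteria were MRPL32 (bL32m) with 11 in the TGF-β1 list and 13 in the control list, MRPL13 (uL13m) with 11 and 8, MRPL9 (bL9m) with 9 and 12, MRPL30 (uL30m) with 8 and 8, MRPL35 (bL35m) with 8 and 8, and MRPL4 (uL4m) with 7 and 6. Of these 6, MRPL32 was highest in the control list and MRPL4 lowest in both. Of the mitochondria-specific ones, MRPL58 (mL62), a peptidyl-tRNA hydrolase that rescues stalled ribosomes, had 8 and 8. MRPL38 (mL38) had 12 and 13, MRPL42 (mL42) and MRPL50 (mL50) had 9 and 14 each, and MRPL54 (mL54) had 8 and 11. MRPL48 (mL48), MRPL52 (mL52), MRPL39 (mL39) and MRPL41 (mL41) had 7, 7, 7 and 5 in the TGF-β1 list and 9, 8, 5 and 6 in the control list. These were among the lowest values of the large subunit.

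In the small subunit, MRPS2 (uS2m) had 12 in the TGF-β1 list and 13 in the control list, and MRPS33 (mS33) had 10 and 11. MRPS28 had 11 and 9, and MRPS24 had 8 and 13. MRPS31 (mS31) had 9 and 7, MRPS23 (mS23) had 6 and 12, and MRPS25 (mS25) and MRPS34 (mS34) had 6 and 6 each. None of these 8 members was strong in either list.

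Just below the strong height of the TGF-β1 list were 7 members with heights of 13 or 14. Of these, MRPL53 (mL53), MRPL3 and MRPL1 were strong in the control list, where MRPL53 had 26. MRPL21 (bL21m) had 14 in the TGF-β1 list and 9 in the control list. MRPL40 (mL40) had 13 and 15, and MRPS18C (bS18m) had 13 and 11. MRPS7 was the other. Of the members strong in 1 list only, MRPL15 (uL15m) had 16 and 15, within 2 units of both strong heights.

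Few members had no flanking peak in a list. MRPL23 and MRPS6 (bS6m) had none in either, and their nearest peaks of the TGF-β1 list lay 4596 bp and 3107 bp from a gene end, with heights of 3 and 7. The TGF-β1 list alone had a flanking peak at MRPS27 (mS27), of height 9. The control list alone had them at MRPL24, MRPL12, MRPS18A (height 9) and MRPL28 (bL28m, height 6). Over all 20033 genes, 2831 had a flanking peak in neither list, 2113 in the TGF-β1 list alone and 2261 in the control list alone. For MRPL12 the nearest TGF-β1 peak, of height 8, lay 1337 bp from a gene end. MRPL44 (mL44) and MRPL45 had flanking peaks of 3 or 4 at their far ends alone. In the TGF-β1 list these lay 10040 bp and 25973 bp from the listed start. The highest control peak of MRPL28 also lay at its far end, 4680 bp from the listed start. The listed start of MRPL44 lies inside the gene, beyond the windows at its ends, so peaks there were not counted.

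Large-subunit and small-subunit genes had overlapping counting intervals for every share. In the TGF-β1 list, 45 of 49 large-subunit members (91.8%) and 26 of 28 small-subunit members (92.9%) had a flanking peak, with median heights of 12 and 10. The control list gave 48 (98.0%) and 26 (92.9%), with medians of 13.5 and 13. Strong peaks were found at 15 large-subunit members (30.6%, 95% interval 18.3 to 45.4) and 6 small-subunit members (21.4%, 8.3 to 41.0) in the TGF-β1 list. In the control list the counts were 20 (40.8%, 27.0 to 55.8) and 7 (25%, 10.7 to 44.9). With MRPS30 and MRPS18A counted as large-subunit proteins, a choice made after the data were seen, the strong counts stayed at 15 and 6 and at 20 and 7.

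The split by origin of the protein also gave overlapping intervals. Of the 44 members with a name shared with bacteria, 14 (31.8%, 18.6 to 47.6) had a strong peak in the TGF-β1 list and 19 (43.2%, 28.3 to 59.0) in the control list. Of the 31 mitochondria-specific members, 7 (22.6%, 9.59 to 41.1) and 8 (25.8%, 11.9 to 44.6) did. Median heights were 12 and 14.5 for the members shared with bacteria, and 9 and 11.5 for the others.

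**Figure D2:**
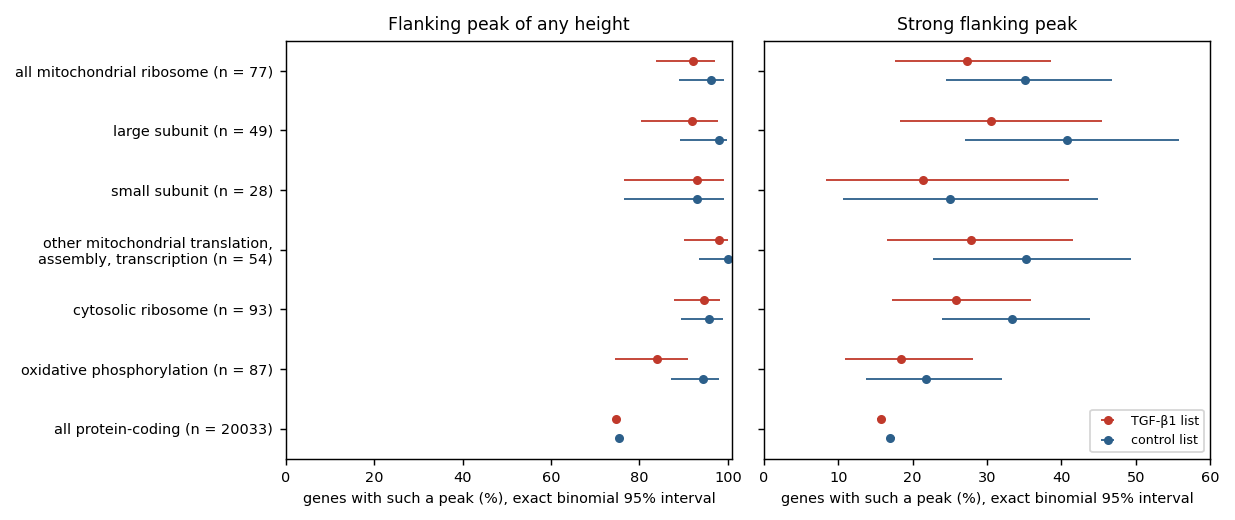
Percentage of genes with a flanking peak of any height (left) and with a strong one (right) for each gene list, TGF-β1 list above control list, with exact binomial 95% intervals. The mitochondrial ribosome genes stand at 92.2% and 96.1% for any height and at 27.3% and 35.1% for strong peaks, with all protein-coding genes at 74.6% and 75.3% and at 15.7% and 17.0%.

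FOXK1 peaks at these genes lay over the transcription start more often than at other genes. Of the 64 members with a listed start and a TGF-β1 flanking peak, the highest peak covered a start in 49 (76.6%, 95% interval 64.3 to 86.2), against 44.9% of 12119 genes. It did so in the control list in 57 of 67 (85.1%, 74.3 to 92.6), against 49.3% of 12181. The midpoint lay within 500 bp of a start for 53 and 55 of these members, with a median distance in either direction of 189.5 bp and 160 bp. Over all genes that distance was 500 bp and 448 bp. The peaks were also wider, with a median width of 856.5 bp in the TGF-β1 list and 864 bp in the control list, against 636 bp and 688 bp over all genes. Width and height come from the same pileup and were not treated as separate measures.

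**Figure D3:**
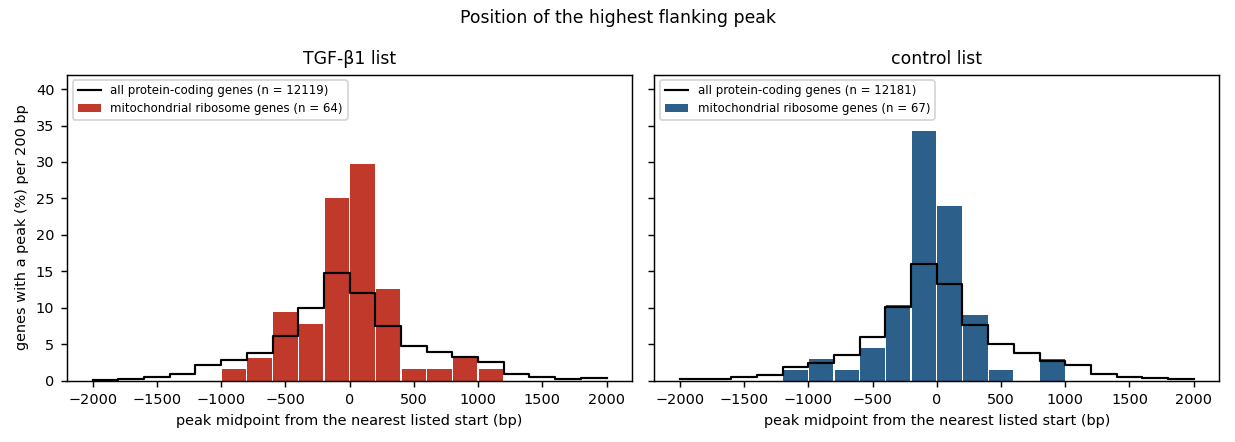
Distance of the midpoint of the highest flanking peak from the nearest listed start, in bp along the direction of transcription, as the percentage of genes per 200 bp bin, TGF-β1 list left and control list right; distances beyond the axis are not drawn. Bars are the mitochondrial ribosome genes (64 and 67 with a start and a peak) and the black line all protein-coding genes; the bars crowd around 0 bp more than the line.

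The same places were occupied in both lists for most members. Of the 70 members with a flanking peak in both lists, the highest peaks overlapped in 65 (92.9%, 95% interval 84.1 to 97.6), against 71.8% of all such genes. The 5 exceptions were MRPL14, MRPL39, MRPL44, MRPL45 and MRPS25, with heights of 12 or less. At MRPL14 (uL14m) the TGF-β1 peak, with a height of 12, lay near its start, 240 bp from that of TMEM63B, and no control peak overlapped it. The control peak of MRPL14, with a height of 4, lay at the other end of the gene.

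Many of the highest peaks were shared with a neighbouring gene. In the TGF-β1 list the highest flanking peak of 33 of 71 members (46.5%, 34.5 to 58.7) also overlapped the window of another protein-coding gene, against 25.7% of all genes with a peak. In the control list the count was 34 of 74 (45.9%, 34.3 to 57.9), against 26.0%. The layout of the genes differed in the same direction, since the window of 52 of 77 members (67.5%) overlapped that of another gene, against 36.3% of all genes. Among genes with such an overlap, 70.2% of members and 62.7% of all genes with a TGF-β1 peak had it in common with the neighbour, and 68.0% and 62.9% in the control list. A shared peak cannot be assigned to either gene.

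Most shared peaks lay at pairs of genes with close starts on opposite strands. Where both genes had a listed start, the starts lay within 1000 bp on opposite strands for 22 of 26 members in the TGF-β1 list (84.6%, 65.1 to 95.6), against 56.8% of all genes with a shared peak. In the control list the count was 20 of 27 (74.1%, 53.7 to 88.9), against 55.6%. MRPL18 shared its peak with TCP1, a subunit of the cytosolic chaperonin, whose start lies 210 bp away. MRPL51 shared its peak with NCAPD2, a condensin subunit, and MRPL37 with CYB5RL. MRPS18B shared its peak with PPP1R10, a regulator of protein phosphatase, and MRPL57 with SKA3, a kinetochore protein. MRPL27 shared with EME1, an endonuclease subunit, MRPL40 with HIRA, a histone chaperone, MRPS7 with GGA3, and MRPS18C with HELQ, a helicase.

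Other shared peaks lay at other layouts or at genes without a listed start. MRPL2 shared its peak with KLC4, a kinesin light chain, MRPS16 with CFAP70, MRPS26 with GNRH2, MRPL53 with CCDC142, MRPL21 with IGHMBP2 and MRPL10 with LRRC46. In the control list alone, MRPL24 shared with HDGF and MRPS15 with CSF3R.

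Several neighbours, picked out after the values were seen, also encode mitochondrial proteins. MRPL43 shared its peak with TWNK, the helicase of mitochondrial DNA. MRPL36 shared its peak with NDUFS6, and MRPL47 with NDUFB5, both subunits of respiratory complex I. MRPS12 shared its peak of 10 and 12 with SARS2, the mitochondrial seryl-tRNA synthetase, and MRPS27 its TGF-β1 peak of 9 with PTCD2, a mitochondrial RNA protein. MRPL49 (mL49), with 9 and 11, shared with FAU, which encodes a protein of the cytosolic ribosome. A pair of members shared 1 peak, MRPS11 of the small and MRPL46 of the large subunit, with a height of 7 in the TGF-β1 list and 9 in the control list. Their starts lie 320 bp apart on opposite strands.

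Members with a shared peak had somewhat higher peaks, as genes in general did. In the TGF-β1 list the median height was 12 for the 33 members with a shared peak and 9 for the 38 without. Over all genes it was 11 and 8. The control list gave 14.5 and 12 for members, and 12 and 9 for all genes. Strong peaks were found at 11 of 33 (33.3%) and 10 of 38 (26.3%) members in the TGF-β1 list, against 28.5% and 18.5% of all genes. In the control list they were found at 15 of 34 (44.1%) and 12 of 40 (30.0%), against 30.3% and 19.9%. MRPL19 and MRPS21, strong in both lists, shared their highest peaks with no other protein-coding gene. Among the 25 members whose windows overlapped no other window, 24 had a flanking peak in each list, and 6 (24.0%) and 7 (28.0%) a strong one. All genes of that layout had a flanking peak in 69.2% and 69.5% of cases and a strong one in 12.6% and 13.5%.

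**Figure D4:**
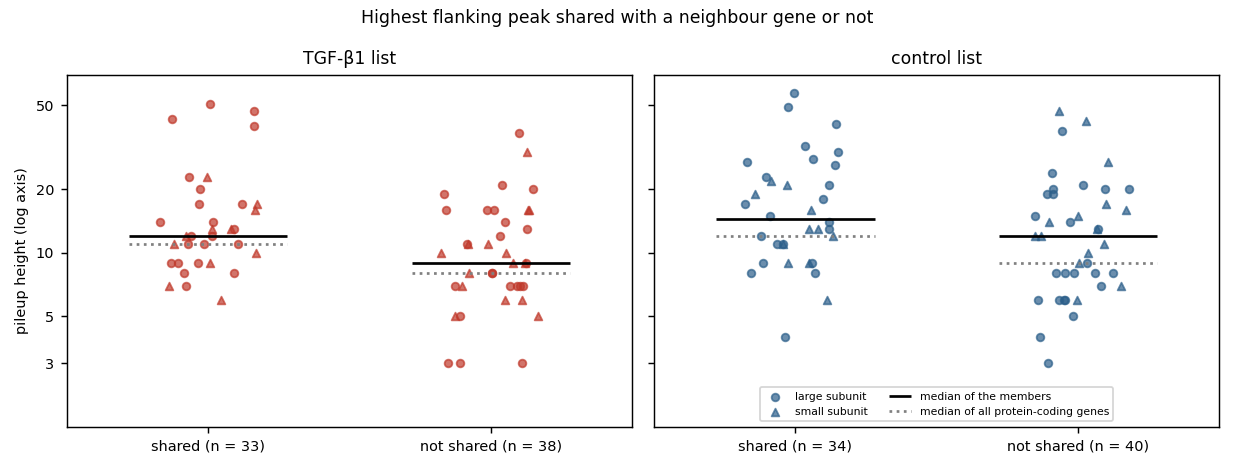
Height of the highest flanking peak (log axis) for members whose peak was shared with a neighbour gene or not, TGF-β1 list left and control list right. Circles are large-subunit and triangles small-subunit genes, black lines the members' medians of 12 and 9 in the TGF-β1 list and 14.5 and 12 in the control list, and dotted lines the medians of all protein-coding genes.

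The promoters held few forkhead letters and many ETS and YY1 letters. The forkhead motif GTAAACA was in the windows of 0 of 69 members, which allows up to 5.21% by the exact interval, against 594 of 15842 protein-coding genes (3.75%). Its core TAAACA, which is contained in it, was found in 3 members (4.35%, 95% interval 0.906 to 12.2), against 12.1% of all genes. These were MRPL20, MRPS18B and MRPS22, each with a strong peak in at least 1 list. In MRPL20 the core begins at position -200 from the start, and in MRPS18B 43 bases after it. In the MRPS22 window shown, it begins at position -166. Among all protein-coding genes strong in both lists, 7.78% had GTAAACA and 15.8% had TAAACA. MRPS22, strong in the control list only, would not be in that group. The higher share there was not particular to the forkhead letters. Every other motif searched was also more common in that group than in all genes. CCGGAAG, for example, was in 23.4% against 16.5%, and AAGATGGC in 6.7% against 4.66%.

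The ETS letters CCGGAAG were found in 30 of 69 members (43.5%, 31.6 to 56.0), against 16.5% of all genes. Of its 45 matches, 31 began in the 100 bases before the start. Matches of each motif were counted per window, so a site in overlapping windows of a gene was counted more than once. AAGATGGC was found in 21 members (30.4%, 19.9 to 42.7), against 4.66% of all genes. Of its 24 matches, 16 began after the start, and in the 200 bases before the start it was found in 4.71% of the members' 85 windows, against 1.06% of the windows of all genes. In the whole windows these shares were 27.1% and 3.53%. The NRF1 letters were found in 9 members (13.0%, 6.14 to 23.3), against 9.66% of all genes. Members strong in either list had CCGGAAG in 14 of 26 cases (53.8%, 33.4 to 73.4) and the others in 16 of 43 (37.2%, 23.0 to 53.3). AAGATGGC was in 6 of 26 (23.1%) and 15 of 43 (34.9%).

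The most similar gene groups had the same pattern in part. GTAAACA was in 0 of 73 cytosolic ribosomal protein genes and 1 of 69 oxidative phosphorylation subunit genes, and TAAACA in 5.48% and 1.45%. CCGGAAG was in 32.9% (22.3 to 44.9) and 30.4% (19.9 to 42.7) of them, and their intervals overlapped that of the members. AAGATGGC was in 11.0% (4.85 to 20.5) and 17.4% (9.32 to 28.4), both below the members' 30.4%. Neither interval reached that share, though both overlapped the members' interval of 19.9 to 42.7, the cytosolic one barely.

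Other letters stood close to their share over all genes. GGGCGG, bound by SP factors, was in 60.9% of members and 64.3% of all genes, and the E-box CACGTG in 13.0% and 10.9%. TGACGTCA, bound by CREB, was in 1 member (1.45%), against 3.0% of all genes, and the CGCG-centred palindrome also searched was in 1 member, against 0.726% of all genes. The median GC content of the windows was 60.3% for the members and 62.3% for all genes. Of 5116 genes whose first listed window had a GC content between the members' quartiles, 20.6% had a strong peak in the TGF-β1 list and 22.3% in the control list. The 69 members with a window had 27.5% and 36.2%. Matches are letters in a window and do not show binding.

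**Figure D5:**
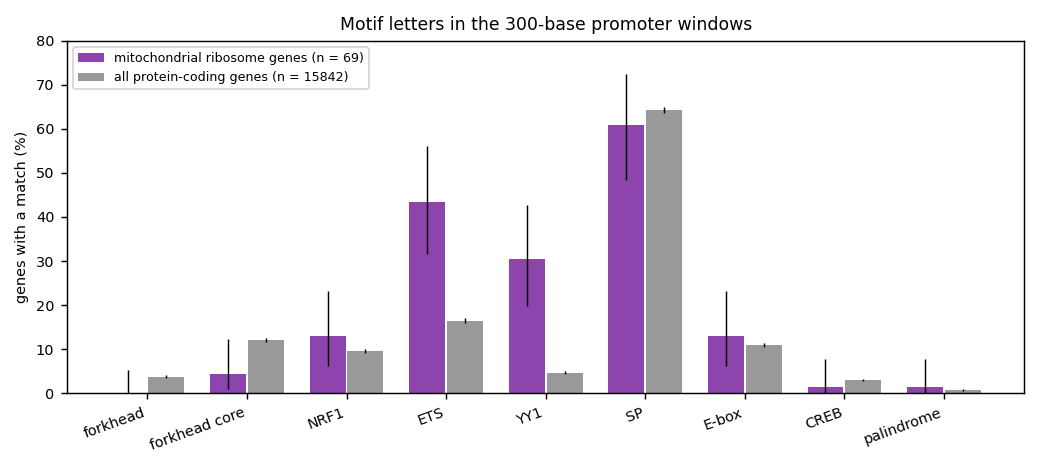
Percentage of genes with a match in a listed promoter window for each motif, mitochondrial ribosome genes (69) left of all protein-coding genes (15842), with exact binomial 95% intervals. The ETS letters reach 43.5% against 16.5% and the YY1 letters 30.4% against 4.66%, while the forkhead motif has 0 matches in the 69 genes.

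Other genes of mitochondrial translation, ribosome assembly and transcription, nuclear regulators included, had peaks about as often as the ribosomal protein genes. Of these 54 listed genes, 53 had a flanking peak in the TGF-β1 list and 54 in the control list, and 15 (27.8%, 16.5 to 41.6) and 19 (35.2%, 22.7 to 49.4) had a strong one. The 5 mitochondrial ribosome proteins with other names all had a peak in both lists and none had a strong one. AURKAIP1, CHCHD1, PTCD3 and DAP3 had heights of 11, 10, 10 and 8 in the TGF-β1 list and 11, 13, 14 and 5 in the control list. PTCD3 shared its peak with POLR1A in both lists, CHCHD1 its control peak with POFUT4, and DAP3 its TGF-β1 peak with YY1AP1.

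Of 13 translation factors, 4 were strong in the TGF-β1 list and 5 in the control list. MTRFR, of ribosome rescue, had 40 and 49, TSFM, the exchange factor of the elongation factor TUFM, had 33 and 36, GFM2, of ribosome recycling, 16 and 16, and TACO1 15 and 17. Of 21 assembly and rRNA factors, 5 and 7 were strong. DDX28, an RNA helicase of large-subunit assembly, had 31 and 50, the assembly GTPases GTPBP10 and MTG2 had 26 and 44 and 21 and 17, and TFB1M, which methylates the small-subunit rRNA, had 20 and 19. Of 15 genes of mitochondrial transcription and its nuclear regulators, 6 and 7 were strong. TFB2M, a mitochondrial transcription initiation factor, had 91 and 112, the highest of the listed genes of mitochondrial translation and transcription. YY1 had 33 and 20, TFAM, which packages mitochondrial DNA, 29 and 20, and GABPB1, a partner of GABPA, 18 and 16. In both lists TFB2M shared its peak with CNST, TSFM with EEF1AKMT3, GFM2 with NSA2, DDX28 with DUS2 and MTG2 with SS18L1. Such a peak cannot be assigned to either gene.

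The most similar gene groups had shares whose intervals overlapped those of the members. Of 93 cytosolic ribosomal protein genes, 88 (94.6%) had a flanking peak in the TGF-β1 list and 89 (95.7%) in the control list, and 24 (25.8%) and 31 (33.3%) a strong one. RPS27L and RPL7L1, taken in by their symbols, had 59 and 61 and 36 and 37, RPS29 had 36 and 31, and RPS14 had 31 and 37. RPS19BP1, named for binding RPS19, was also taken in by symbol and was strong in both lists, with 15 and 20. So were the joined symbols RPS10-NUDT3, RPL17-C18orf32 and RPL36A-HNRNPH2 taken in, none of them strong. The 3 genes with a flanking peak in neither list included RPL10L, a retrocopy. Of 87 oxidative phosphorylation subunit genes, joined symbols such as ATP5MF-PTCD1 included, 73 (83.9%) and 82 (94.3%) had a flanking peak. A strong one was found at 16 (18.4%) and 19 (21.8%). NDUFS6 of complex I had 40 in the TGF-β1 list and 32 in the control list, which is the peak of MRPL36, COX4I1 of complex IV 32 and 42, NDUFA2 28 and 24, and NDUFA11 25 and 29. The group's 95% intervals for strong peaks, 10.9 to 28.1 and 13.7 to 32.0, overlapped those of the members. The cytosolic group shared its highest peak with a neighbour in 28.4% and 37.1% of cases, against the members' 46.5% and 45.9%, and the oxidative phosphorylation group in 49.3% and 42.7%. Genes that share a peak, such as MRPL36 and NDUFS6, are counted in both groups. In both lists RPS29 shared its peak with LRR1, COX4I1 with EMC8, NDUFA2 with TMCO6 and IK, and NDUFA11 with VMAC.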

How the data were processed

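The 4 libraries were 1 FOXK1 immunoprecipitate and 1 input for TGF-β1 and for control, and 1 peak list per condition was analysed. The deposited value is a signal in whole numbers, in a column with no header, read as the pileup height of each peak. The build was hg38, and the tools named were MACS2 2.1.1.20160309 and bcl2fastq 2.17, per the submitters' processing notes. The aligner, filters, threshold and read depth are not given in the sources used here.

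Peaks on 24 chromosomes were read as counting starts from 0 and joined to RefSeq genes (GRCh38.p14) with scipy 1.17.1, pandas 2.3.3 and numpy 2.4.6 under Python 3.11.15. Figures used matplotlib 3.10.9. Gene assignment and motif search were checked on simulated data. Intervals are exact (Clopper-Pearson). With 1 library per condition there is no p-value. Genes are not replicates.

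The members and lists were chosen with earlier results of these data known. All 54 other genes matched by symbol. Named were the members strong in either list, those without a peak in a list, those just below the strong height, and up to 4 genes of each other list, with members of each part of the ribosome added to show their range.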

Additional observations from a re-analysis of the deposited data

How the results depend on the processing

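Of 131 values recomputed for 17 counts and medians under 14 alternatives, 109 stayed within 1.5 times the reported count or inside the interval of the median, and 22 did not. The alternatives with no such shift were windows of 500 bp and 2 kb, peak midpoints, at least 0.5 of the peak in the window, heights of 5 or more, neighbours of every gene type, overlap of 0.5 of the shorter peak, and, chosen after seeing the data, starts counted from 1 and MRPS30 and MRPS18A placed in the large subunit. With peaks of height 10 or more, 42 members had a flanking peak in the TGF-β1 list, 49 in the control list and 37 in both, with medians of 15 and 18, and 32.7% and 39.8% of all genes did. Strong peaks taken down to the 5000th highest gave 9 members in the TGF-β1 list, 14 in the control list and 7 in both. By subunit these were 7 large and 2 small, and 11 large and 3 small, against 7.65% and 9.1% of all genes. Down to the 20000th highest there were 39 in the TGF-β1 list, with 27 large and 12 small, 33 in both lists and 14 small-subunit members in the control list, against 28.1% and 27.4% of all genes in the TGF-β1 and control lists. From height 20 there were 11 in the TGF-β1 list, with 9 large and 2 small, and 10 in both, against 8.51% of all genes in the TGF-β1 list. With listed starts only, which 69 members have, 22 members shared their highest control peak with a neighbour. What lay behind each shift was not tested. No paired analysis was possible because each condition had 1 FOXK1 library. Unknown depth limits every comparison between the lists.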
